A study of Saccharomyces cerevisiae with 10 samples.

Results

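The RNAs described here are the Xrn1-sensitive unstable transcripts (XUTs) that were well counted while the exosome subunit Rrp6 was present in the cells. They are the rows whose identifier is a number, the letter F or R and a number, and that held at least 40 counts summed over both libraries of the *rpb1-84* strain. Of 1655 such rows among the 10431 rows counted, 468 (28.3%) passed, and they held 86.8% of all XUT counts in *rpb1-84*. The counts carry no class name for these rows, which were taken as XUTs because the other non-coding classes have a prefix of their own. The files and the reference used here give no position for these rows, so that no coordinates, neighbouring genes or sequences of the XUTs are given.

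Libraries of 3′ tags of polyadenylated RNA (QuantSeq) from 5 strains of the budding yeast *Saccharomyces cerevisiae* were compared, with 2 independent cultures of each strain grown in rich medium at 30 °C to an OD600 of about 0.8. Of the strains, 4 are MATα with the markers his3-∆200, leu2-3 and leu2-112, trp1-∆63 and ura3-52 and lack chromosomal *RPB1* (rpb1-∆187::HIS3), the gene of the largest RNA polymerase II subunit, so that a LEU2 plasmid is its only source. In *rpb1-84 rrp6∆* the plasmid carries the *rpb1-84* allele, a mutation in the foot domain of the polymerase, and *RRP6* is replaced by KanMX4. In *rrp6∆* the plasmid carries *RPB1* and *RRP6* is replaced in the same way. In *rpb1-84* the plasmid carries *rpb1-84*, *RRP6* is intact, and *RPB4* carries a TAP tag with TRP1 that no other strain has. The *rpb4∆* strain is of another background, labelled MATa, with his3-∆1, leu2-∆0, met15-∆0 and ura3-∆0, and has rpb4∆::kanMX4. WT carries *RPB1* on the plasmid and is the control of the *rrp6∆* strains. The controls that the study used for *rpb1-84* and *rpb4∆* are not analysed here.

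XUTs are polyadenylated RNAs of RNA polymerase II, many of them antisense to genes, that reach the cytoplasm, are decapped and are then degraded from the 5′ end by the exonuclease Xrn1. Rrp6 is a 3′ to 5′ exonuclease of the nuclear exosome and is known for the removal of another class, the cryptic unstable transcripts (CUTs), which end by the Nrd1-Nab3-Sen1 pathway. The classes overlap: XUTs can share a transcription unit with a CUT, with a Nrd1-unterminated transcript (NUT) or with a stable unannotated transcript (SUT). The comparisons ask how XUTs that can be seen with Rrp6 behave when Rrp6 is removed and when the polymerase is altered as well.

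Libraries held from 1415496 to 7268211 counts, the *rpb4∆* libraries being the shallowest. In the libraries labelled *rrp6∆*, *RRP6* (YOR001W, R64 chromosome XV, 326832 to 329033) had 572 and 548 counts, and in those labelled *rpb1-84 rrp6∆* it had 290 and 176, against 231 and 171 in WT. Scaled for depth to CPM, these were 90.5 and 89.9, 51.9 and 41.0, and 81.9 and 70.2 in the same order. The edgeR log2 fold change against WT was 0.24 in *rrp6∆* and −0.70 in *rpb1-84 rrp6∆*, both without a call. The position of the tags within the gene cannot be read from a count, so the deletion is not checked by these values and strains are called by their labels throughout. *RPB4* (YJL140W, chromosome X, 150961 to 151626) had 7 and 4 counts in *rpb4∆* and 33 and 59 in the tagged *rpb1-84* strain, against 606 and 508 in WT. The 4 α-cell genes read together (*MF(ALPHA)1*, *MF(ALPHA)2*, *STE3*, *SAG1*) had 201 and 196 CPM in *rpb4∆* against 1163 and 1207 in WT, while the 6 a-cell genes (*MFA1*, *MFA2*, *STE2*, *BAR1*, *STE6*, *AGA2*) had 6.96 and 6.11 against 8.51 and 5.33, CPM being scaled by the TMM method here and below. The a-cell genes were not higher in *rpb4∆* beyond the spread of WT, and these counts do not bear out its MATa label. The α-cell sum came mostly from *STE3* and *SAG1*. In WT, labelled MATα, *MF(ALPHA)1* had only 2.48 and 1.64 CPM and *MF(ALPHA)2* 0.709 and 2.46, so that these genes do not settle the mating type of a strain. Over the XUTs, replicate cultures differed by a chi-square of 1.08 to 2.13 per row, where counting error alone gives about 1. All p-values measure the spread between these replicate cultures.

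The counts that chose the XUTs are given first, as a description. Summed over both *rpb1-84* libraries they ran from 40 to 11153 with a median of 81, and 230 XUTs had 40 to 79 counts. Among 846 XUT rows with the letter F, 244 were chosen, and among 809 with the letter R, 224. Just inside the threshold, 10F87, 12R249, 12R265 and 13R362 each had 40 counts, for example 17 and 23 for 10F87. Just outside it, 10F57, 12F209, 14R187 and 15F144 each had 39, for example 10 and 29 for 10F57. XUTs on either side of the threshold thus differed by 1 count.

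The XUT with the most *rpb1-84* counts stood apart from all others. 12R299 had 3280 and 7873 counts in *rpb1-84*, which was 14.3% of all counts on the 468 XUTs in that strain. In the other strains its share of these counts lay between 1.29% in *rrp6∆* and 4.40% in *rpb4∆*. The 8 XUTs with the most *rpb1-84* counts held 24.7% of the XUT counts there and from 5.64% to 8.86% in the other strains. 12R299 and these 8 were picked by their *rpb1-84* counts, which favours a larger share in that strain. Nothing is therefore read from the contrast with the other strains.

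As a share of each library, the XUTs took the most counts in *rrp6∆* and the fewest in *rpb4∆*. They held 1.45% and 1.39% of the counts in *rrp6∆* against 0.743% and 0.756% in WT, a ratio of means of 1.89. In *rpb1-84 rrp6∆* they held 1.11% and 1.12%, which was 1.48 times the WT share and 0.784 times the *rrp6∆* share. No library of one strain overlapped with the other strain in any of these comparisons, and each gave p = 0.333 in an exact two-sided permutation test, the smallest p that 2 libraries against 2 allow. The *rpb1-84* libraries held 0.708% and 0.723%, close to WT, and the *rpb4∆* libraries 0.444% and 0.447%. Those shares are described without a test, since *rpb1-84* chose the XUTs and the control of *rpb4∆* is not analysed here.

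**Figure D1:**
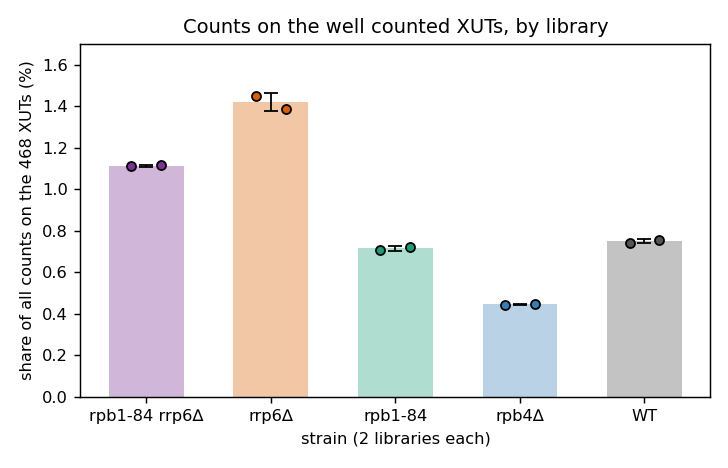
Share of all counts (%) on the 468 XUTs in each library, by strain. Bars are means of 2 libraries, points are the libraries and error bars the SD; *rrp6∆* stands highest with 1.42% ± 0.0436 and *rpb4∆* lowest with 0.445% ± 0.00164, and WT had 0.75% ± 0.00889.

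Levels of single XUTs were also highest in *rrp6∆* and lowest in *rpb4∆*. With counts scaled by the TMM method to CPM (normalized CPM, counts set to a common library total), the median XUT had 12.9 in *rpb1-84 rrp6∆*, 15.1 in *rrp6∆*, 9.38 in *rpb1-84*, 6.12 in *rpb4∆* and 8.36 in WT. The strain with the highest mean level was *rrp6∆* for 163 XUTs, *rpb1-84* for 150, *rpb1-84 rrp6∆* for 102, *rpb4∆* for 33 and WT for 20. With scaling factors from protein-coding rows (ORFs) alone, *rrp6∆* was highest for 272 and *rpb1-84* for 81. The *rpb1-84* counts chose the XUTs and favour that strain in this ranking, so that nothing is read from its place. The same ranking over all rows is not given. The level was lowest in *rpb4∆* for 260 of the 468. The replicates of *rrp6∆* differed by a median of 0.19 on the log2 scale, those of *rpb4∆* by 0.43. In bulk RNA a change in synthesis and a change in decay of an XUT cannot be told apart.

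In *rrp6∆* against WT, more XUTs rose than fell. Counts of the 6 libraries of *rpb1-84 rrp6∆*, *rrp6∆* and WT were fitted together by edgeR's quasi-likelihood model, and a row was called when its log2 fold change was beyond 1 and its p, adjusted over all 9197 rows tested, was below 0.1. None of these libraries had chosen the XUTs, but *rpb1-84 rrp6∆* shares the *rpb1-84* allele with the strain whose counts did. The filter on low counts kept 464 of the 468, leaving out 12R212, 15R229, 2R267 and 7F163. In *rrp6∆*, 181 XUTs (39%) were called higher and 6 (1.29%) lower than in WT. Over all rows tested the higher calls made up 32.2% and the lower calls 6.75%. The share of XUTs called higher was thus only a little above that of all rows. The median log2 fold change of the XUTs was 0.68 (quartiles 0.07 and 1.44), against −0.01 over all rows tested. For 298 of the 468 XUTs both *rrp6∆* values exceeded both WT values, and for 50 both were smaller, where 43.1% and 42.6% of all rows tested did so.

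The size of the change depends on the scaling. Factors from ORFs alone raised the median of all rows by 0.49 in *rrp6∆* against WT and total counts by 0.32, and 265 (57.1%) and 230 (49.6%) XUTs were then called higher, where 39% and 36.2% of all rows tested were. Called lower were 1 and 2 XUTs, against 0.826% and 1.75% of all rows. Relative to the median of all rows, the XUT median was 0.69 under each of these scalings. A change of scaling shifts all rows nearly alike, so that this constancy follows from the method and is no further support.

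**Figure D2:**
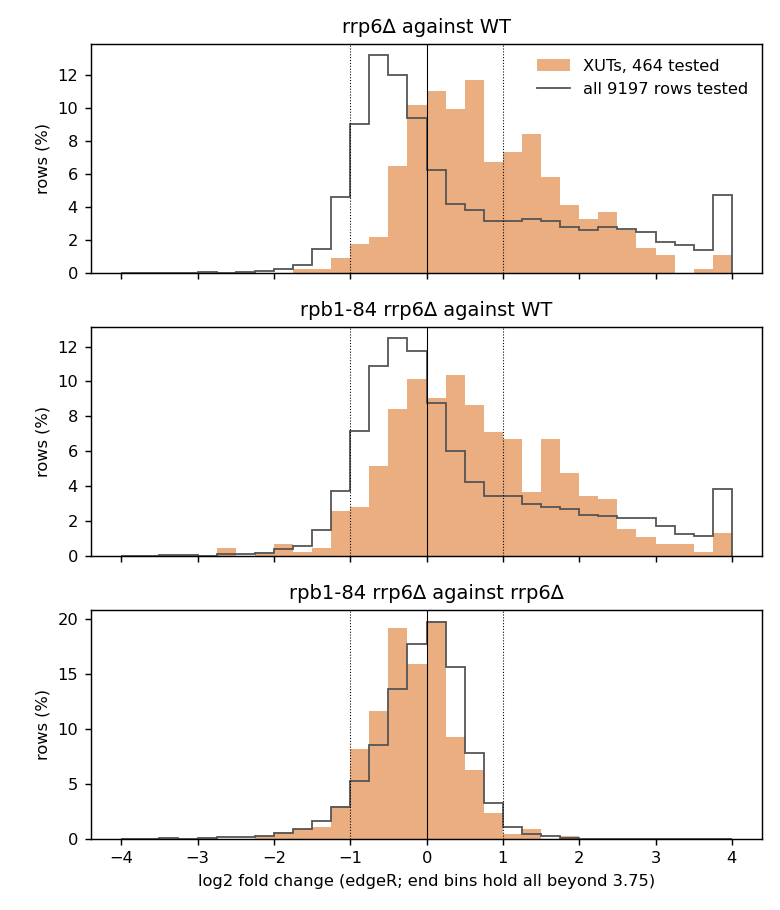
Log2 fold changes of the XUTs (filled) and of all rows tested (line) as percent of rows per bin, in the 3 comparisons. In *rrp6∆* against WT the XUT median is 0.68, in *rpb1-84 rrp6∆* against WT 0.49 and in *rpb1-84 rrp6∆* against *rrp6∆* −0.17; dotted lines mark the fold threshold of 1.

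The largest changes were of XUTs that WT barely held. For 14R141 the counts were 60 and 44 in *rrp6∆*, against 0 and 1 in WT, a ratio of 44.0 with a 95% counting interval from 7.73 to 1756. For 11R109 they were 116 and 120 in *rrp6∆*, against 2 and 1 in WT, a ratio of 33.3 (11.3 to 163). Both were therefore nearly absent from WT, yet had 16 and 26 counts (14R141) and 45 and 74 counts (11R109) in *rpb1-84*, where Rrp6 is present. These intervals, like the bounds given for counts of 0, cover counting error only.

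The other large increases had more counts in WT. 10R21 had 291 and 285 counts in *rrp6∆*, against 7 and 6 in WT, or 46.4 ± 0.502 and 2.47 ± 0.0139 normalized CPM (SD, 2 libraries each), which gave a log2 fold change of 4.21 (standard error 0.248, edgeR adjusted p = 5.14e-17). 4R364 had 921 and 874 counts in *rrp6∆* against 34 and 16 in WT (3.92), and 4R55 had 856 and 845 against 52 and 29 (3.15). The libraries of *rrp6∆* were far above those of WT in each case, whereas *rpb1-84* was not above WT, with 6.34 ± 0.661 normalized CPM in *rpb1-84* against 9.31 ± 3.88 in WT for 4R364 and 9.13 ± 1.17 against 15.2 ± 4.62 for 4R55. For 13F370, 336 and 322 counts in *rrp6∆* stood against 10 and 5 in WT (4.20). The same counts were given in every library to NUT0620, so that this XUT cannot be told apart from that NUT. 11R223 had 370 and 454 counts in *rrp6∆* against 13 and 15 in WT (3.63), and its counts lay within 0.898% of those of SUT679. Completing the 8 largest, 9R51 had 115 and 78 counts in *rrp6∆*, against 5 and 4 in WT (3.16).

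Decreases in *rrp6∆* were few and smaller. 9R55 had 38 and 23 counts in *rrp6∆*, against 39 and 41 in WT, or 4.89 ± 1.58 and 15.3 ± 2.12 normalized CPM (SD, 2 libraries each), which gave a log2 fold change of −1.63 (standard error 0.278, edgeR adjusted p = 3.36e-06). 14F97 had 15 and 12 counts in *rrp6∆* against 16 and 15 in WT (−1.43). 8R47 had 20 and 14 counts in *rrp6∆* against 15 and 16 in WT (−1.10), 7R124 had 9 and 11 against 9 and 9 (−1.08) and 11F244 had 44 and 21 against 27 and 30 (−1.05). The last of the 6, 15F89, was outside the rule for named XUTs because its libraries overlapped. With scaling from ORFs alone only 9R55 was called, and the call of 7R124 was also lost with DESeq2 (adjusted p = 0.169). Its adjusted p was 0.109 without WT replicate 1, 0.185 without WT replicate 2 and 0.168 without *rrp6∆* replicate 1. The call of 8R47 was lost without WT replicate 2 (−0.96) or *rrp6∆* replicate 2 (−0.89), and that of 11F244 without the same libraries (−0.88 and −0.64).

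Some XUTs with many counts hardly differed between *rrp6∆* and WT. 12R235 had 444 and 441 counts in *rrp6∆*, against 209 and 160 in WT, which are 71.3 ± 1.48 and 69.9 ± 5.97 normalized CPM (SD, n = 2 each). The log2 fold change was 0.02 (standard error 0.114, edgeR adjusted p = 0.852). For 14R130, 7F437, 9F213, 15F269 and 2R63, chosen by the same rule, the values lay between −0.02 and 0.03, and the *rrp6∆* and WT libraries overlapped. Under other scalings or with 1 library left out the sign of all 6 changed at least once, so that no direction is given for them.

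The XUTs with the most *rpb1-84* counts had mixed changes when *RRP6* was deleted from the strain with WT polymerase. 7R243 rose, with 849 and 860 counts in *rrp6∆* against 107 and 70 in WT, a log2 fold change of 2.03 (standard error 0.127, edgeR adjusted p = 2.95e-16). 15F18 rose as well, with 655 and 639 counts in *rrp6∆* against 145 and 125 in WT (1.02), a call that was lost when all 10 libraries were fitted together (0.98). 10R186 had 155 and 154 counts in *rrp6∆* against 39 and 29 in WT, and its log2 fold change of 0.94 was just under the threshold, which it passed with scaling from ORFs alone (1.43). Its counts matched those of NUT1187 within 2%. 12R299 had 942 and 1107 counts in *rrp6∆*, against 677 and 559 in WT, or 165 ± 23.0 and 235 ± 7.52 normalized CPM, a log2 fold change of −0.51 without a call. The remaining 4, which are 9F4, 4R263, 16R348 and 10R249, lay between −0.30 and −0.13, and their sign changed with scaling from ORFs alone or by total counts.

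The calls are described next by the counts in *rpb1-84*, which chose the XUTs, so that nothing is read from the order of the classes. Of the XUTs with 40 to 79 summed *rpb1-84* counts, 42.5% of 226 were called higher, of those with at least 80 but under 160 counts 43.8% of 128, of those with at least 160 but under 320 counts 31.5% of 73, and of those with 320 or more 16.2% of 37. Of the rows below the threshold, 384 of 463 with 10 to 39 counts and 194 of 724 with 0 to 9 passed the filter on low counts, partly through the libraries where they are high. The shares called among those that passed, 60.2% and 81.4%, are therefore not comparable with those of the chosen XUTs.

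**Figure D3:**
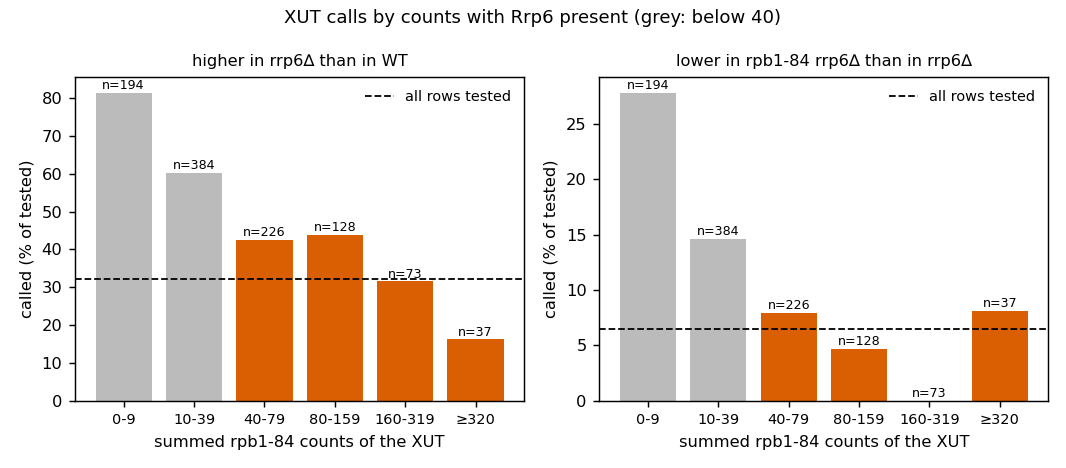
Percent of tested XUT rows called higher in *rrp6∆* than in WT (left) and lower in *rpb1-84 rrp6∆* than in *rrp6∆* (right), by summed *rpb1-84* counts; n is the number of rows tested, grey bars lie below the threshold of 40, and the dashed line is the share of all rows tested. The left bars stand at 42.5% for 40 to 79 counts and at 16.2% for 320 or more; the same counts chose the XUTs, and grey bars hold only rows that passed the filter.

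Other classes chosen by the same count threshold changed more or less than the XUTs. In *rrp6∆* against WT, 63.5% of 241 CUTs and 69.0% of 568 NUTs with at least 40 summed *rpb1-84* counts were called higher, with medians of 1.57 and 1.66. For SUTs it was 30.1% of 335 with a median of 0.56, and for ORFs 2.63% of 4751 with a median of −0.51. The XUTs, at 39% and 0.68, lay nearest to the SUTs. These shares are side by side without a test.

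Some XUTs had nearly the counts of a row of another class. For 68 XUTs (14.5%) the counts over all libraries differed by at most 2% from those of a SUT (40 XUTs), a NUT (30) or a CUT (7), a tolerance chosen after the counts were seen. None came so close to an ORF, where the smallest difference was 4.78%. Of the 30 that match a NUT, 21 were called higher in *rrp6∆* (median 1.35), and of the 7 that match a CUT, 6. Of the 34 that match a SUT but neither of the others, 10 were called higher, with a median of 0.19. Among the 396 tested XUTs without such a match, 147 were called higher, with a median of 0.65. The 3 XUTs with identical counts to another row were 13F370, 15R33 (NUT1384) and 11F90 (SUT232). 15R33 had 325 and 297 counts in *rrp6∆* against 52 and 30 in WT, a log2 fold change of 1.68, and 11F90 had 85 and 94 against 17 and 11 (1.43).

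**Figure D4:**
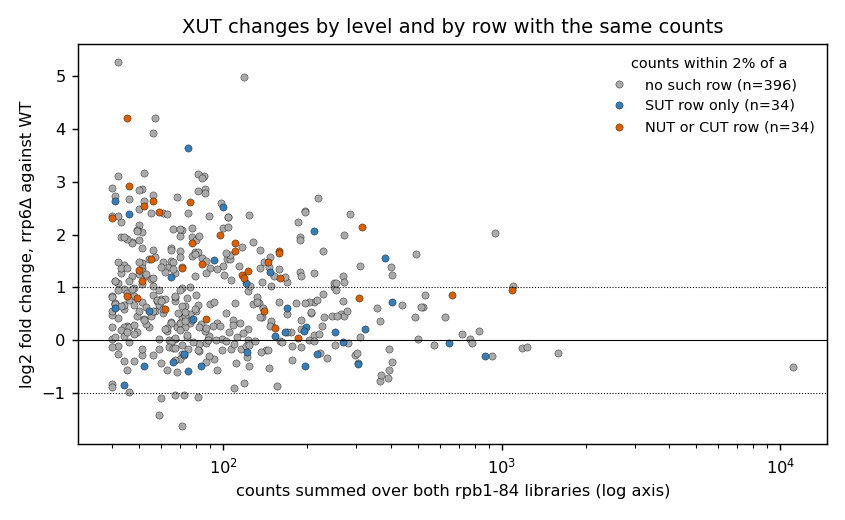
Log2 fold change of each tested XUT in *rrp6∆* against WT over its summed *rpb1-84* counts (log axis), coloured by whether a NUT or CUT row (34 XUTs), only a SUT row (34) or none of these (396) had counts within 2%. The spread narrows to the right, and 12R299 stands alone with 11153 counts at −0.51.

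In *rpb1-84 rrp6∆* against WT, the XUTs rose as well, but with more decreases. Of the 464 tested, 157 (33.8%) were called higher and 21 (4.53%) lower, where 28.0% and 6.40% of all rows were. The median log2 fold change was 0.49, against 0.03 over all rows tested. It stayed 0.46 above it under the other scalings, which shift all rows nearly alike. The XUTs were chosen by counts in a strain with the same *rpb1-84* allele, which favours XUTs that are high with it. Both libraries of *rpb1-84 rrp6∆* lay above both of WT for 269 XUTs and below for 85, where 42.8% and 39.2% of all rows tested lay so.

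The largest increases were partly of XUTs named above, and both comparisons share the WT libraries, so that the values stand side by side only. 14R141 had 45 and 20 counts in *rpb1-84 rrp6∆* against 0 and 1 in WT (ratio 34.6, 6.0 to 1388), and 11R109 had 77 and 61 against 2 and 1 (24.5, 8.21 to 120). 13F370 reached 500 and 343 counts against 10 and 5 in WT, a log2 fold change of 4.89 (standard error 0.224, edgeR adjusted p = 2.76e-20). 10R21 was at 4.13, 4R364 at 3.80 and 4R55 at 3.47, all with their libraries far above WT. Not named above were 7F133, with 556 and 417 counts in *rpb1-84 rrp6∆* against 25 and 11 in WT (3.84), and 9F38, with 292 and 239 against 11 and 11 (3.68). 7F133 shared its counts with CUT135 within 2%.

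The strongest decreases included XUTs that are abundant in WT. 15F14 had 956 and 717 counts in *rpb1-84 rrp6∆*, against 2617 and 2411 in WT, or 169 ± 2.81 and 958 ± 43.5 normalized CPM (SD, 2 libraries each), which gave a log2 fold change of −2.50 (standard error 0.0979, edgeR adjusted p = 2.15e-22). 9F2 had 1323 and 961 counts in *rpb1-84 rrp6∆* against 2526 and 2336 in WT (−2.01). 12F188 had 668 and 543 against 1170 and 1027 (−1.76). No library of *rpb1-84 rrp6∆* came near WT for these 3, and *rpb1-84* was lower still, with 67 and 89 counts for 15F14, 123 and 272 for 9F2 and 143 and 346 for 12F188. The other decreases were of XUTs with few counts. 9R55 had 18 and 7 counts in *rpb1-84 rrp6∆*, against 39 and 41 in WT (−2.58), and 7F380 had 9 and 5 against 17 and 11 (−1.89). 10R233, which matches SUT643, was at −1.85 and 8R47 at −1.46. 4R411, with 5 and 10 counts in *rpb1-84 rrp6∆* against 11 and 13 in WT, was at −1.57, and its call was lost without *rpb1-84 rrp6∆* replicate 1 (−0.96, edgeR adjusted p = 0.142).

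Between *rpb1-84 rrp6∆* and *rrp6∆* few XUTs were called. By an edgeR adjusted p below 0.1 alone, without the fold threshold, 218 of the 464 tested XUTs passed, as did 4603 of all 9197 rows tested. Of 464, 7 (1.51%) were called higher and 27 (5.82%) lower in *rpb1-84 rrp6∆*, where 1.96% and 6.49% of all rows were, so that the shares called were close to those of all rows. The XUTs were chosen by counts in a strain with the same *rpb1-84* allele. That choice favours XUTs that are high with this allele, so that nothing is read from the closeness. The median log2 fold change was −0.17, against −0.02 over all rows tested. It was 0.15 below it under each scaling, since scalings shift all rows nearly alike. Both *rpb1-84 rrp6∆* libraries lay below both *rrp6∆* libraries for 212 XUTs (45.3%) and above for 104 (22.2%), where 36.8% and 34.4% of all rows tested lay so. With factors from ORFs alone 5 XUTs were called higher and 50 (10.8%) lower, and with total counts 5 and 46 (9.91%), where 9.27% and 9.09% of all rows were called lower and 1.13% and 1.15% higher. By the summed *rpb1-84* counts, which chose the XUTs, and as a description only, 7.97% of XUTs with 40 to 79 were called lower, 4.69% with at least 80 but under 160, 0 of the 73 with at least 160 but under 320, and 8.11% with 320 or more. Of those 73, edgeR and DESeq2 each called 0 lower, whereas 20 were lower at an unadjusted edgeR p below 0.05.

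The largest decrease was of an XUT that is abundant in *rrp6∆*. 12F188 had 668 and 543 counts in *rpb1-84 rrp6∆*, against 3870 and 3214 in *rrp6∆*, or 123 ± 4.96 and 570 ± 60.1 normalized CPM (SD, 2 libraries each), which gave a log2 fold change of −2.21 (standard error 0.0952, edgeR adjusted p = 2.48e-19). 15F14 had 956 and 717 counts in *rpb1-84 rrp6∆* against 3625 and 2911 in *rrp6∆* (−1.63). Among XUTs with fewer counts, 7F384 had 25 and 15 counts in *rpb1-84 rrp6∆* against 91 and 98 in *rrp6∆* (−1.90) and 16F182 had 51 and 36 against 196 and 194 (−1.83). Libraries that do not overlap were a condition for naming the strongest decreases, so that this separation is no further support. 4F446, with 14 and 8 counts in *rpb1-84 rrp6∆* against 47 and 47 in *rrp6∆*, was at −1.75, and 4R27, with 16 and 11 against 67 and 45, at −1.71. 13F286 was at −1.62 and 9F111 at −1.51. Of the XUTs chosen for their *rpb1-84* counts, 9F4 also fell, with 339 and 245 counts in *rpb1-84 rrp6∆* against 804 and 781 in *rrp6∆* (−1.11).

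All 7 XUTs called higher in *rpb1-84 rrp6∆* had both libraries above those of *rrp6∆*. 15R249 had 1407 and 1183 counts in *rpb1-84 rrp6∆*, against 594 and 574 in *rrp6∆*, or 264 ± 16.9 and 94.0 ± 0.125 normalized CPM (SD, 2 libraries each), which gave a log2 fold change of 1.49 (standard error 0.0909, edgeR adjusted p = 1.78e-15). It matches NUT1423 and had only 66 and 94 counts in *rpb1-84*. 7F36 had 293 and 266 counts in *rpb1-84 rrp6∆* against 107 and 102 in *rrp6∆* (1.76), and 13F209 had 324 and 254 against 136 and 154 (1.33). 15F269 was at 1.26, with 212 and 172 counts against 87 and 115. Of the 3 others, 4F544 was at 1.30, 16R9 at 1.10 and 13R177 at 1.05. Each of these 3 lost its call under some alternative, 4F544 without *rrp6∆* replicate 2 (0.97) or *rpb1-84 rrp6∆* replicate 2 (0.91), 16R9 without *rpb1-84 rrp6∆* replicate 1 (0.92) and 13R177 without *rrp6∆* replicate 1 (0.84). The calls of 16R9 and 13R177 were also lost with scaling from ORFs alone (0.95 and 0.91) and with total counts (0.96 and 0.91).

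Among the XUTs with the most *rpb1-84* counts, 12R299 was higher in *rpb1-84 rrp6∆* than in *rrp6∆* without reaching a call. It had 1387 and 1338 counts in *rpb1-84 rrp6∆* against 942 and 1107 in *rrp6∆*, a log2 fold change of 0.76 (standard error 0.101, edgeR adjusted p = 1.96e-07). 10R186 was at 0.65, 4R263 at 0.34, 7R243 at 0.20, 10R249 at −0.09 and 15F18 at −0.46. 16R348 was at 0.13, and its sign changed with scaling from ORFs alone or by total counts.

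**Figure D5:**
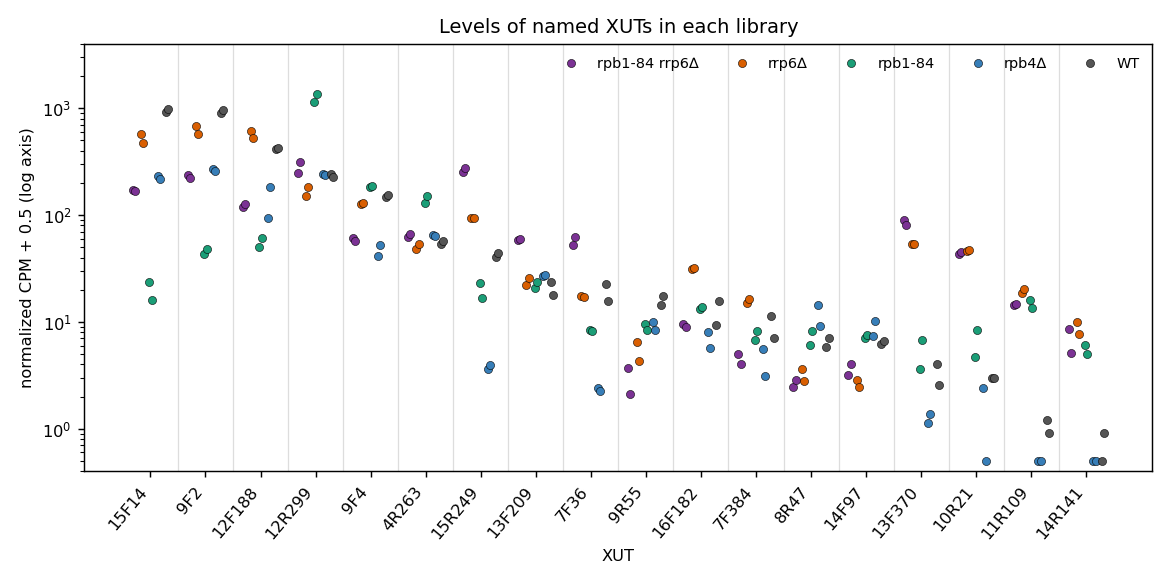
Normalized CPM (with 0.5 added, log axis) of 18 named XUTs in each of the 10 libraries, coloured by strain and ordered by WT level: the 3 with the most *rpb1-84* counts and the 3 strongest calls in each direction of each comparison. 12R299 is highest in *rpb1-84*, with 1255 ± 171 against 235 ± 7.52 in WT, whereas 15F14, 9F2 and 12F188 are lowest there.

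Levels in *rpb1-84* against WT are a description, because the *rpb1-84* counts chose the XUTs and favour those that are high there. WT is the control of the *rrp6∆* strains, and the study used another control for *rpb1-84*. The *rpb1-84* strain also carries the *RPB4* tag, so that allele and tag cannot be told apart in this ratio. The median log2 ratio of *rpb1-84* to WT was 0.42, with 118 XUTs more than 2-fold above and 28 more than 2-fold below, where 15.3% and 14.0% of all 10431 rows were. With factors from ORFs alone, or with total counts, the median was 0.27. 12R299 stood at 1255 ± 171 normalized CPM in *rpb1-84* against 235 ± 7.52 in WT, and 10R186 at 127 ± 4.47 against 12.9 ± 1.36. At the other end, 15F14 had 19.4 ± 5.39 in *rpb1-84* against 958 ± 43.5 in WT, 9F2 had 45.0 ± 3.53 against 927 ± 44.5 and 12F188 had 54.9 ± 7.78 against 418 ± 4.68. 12R299 and 10R186 were named for their *rpb1-84* counts. 15F14, 9F2 and 12F188 were named for being called lower in *rpb1-84 rrp6∆*, which carries the same allele. Nothing is therefore read from these directions.

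The ratio of *rpb1-84 rrp6∆* to *rpb1-84* is likewise a description, and the strains also differ in the *RPB4* tag. Its median was 0.13 on the log2 scale, with 111 XUTs more than 2-fold above and 75 more than 2-fold below, where 28.8% and 16.5% of all rows were. The median was 0.61 with factors from ORFs alone and 0.45 with total counts, so that its size depends on the scaling. Both libraries of *rpb1-84 rrp6∆* lay above both of *rpb1-84* for 207 XUTs (44.2%) and below for 179 (38.2%), close to the 43.4% and 38.3% of all rows. Without overlap in either background, 8 XUTs (1.71%) were higher in *rpb1-84 rrp6∆* than in *rpb1-84* and lower in *rrp6∆* than in WT, where 7.20% of all rows were, and 71 (15.2%) were lower and higher in these comparisons, where 4.62% of all rows were. The *rpb1-84* counts chose the XUTs, so that nothing is read from either share.

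In *rpb4∆* the XUTs were mostly below their WT level, across strain backgrounds and at the lowest depth. The median XUT had 9 and 7 counts in the *rpb4∆* libraries, and 173 of the 468 had at least 10 in each. The median log2 ratio of *rpb4∆* to WT was −0.44, with 17 XUTs more than 2-fold above and 138 more than 2-fold below, where 4.12% and 23.0% of all rows were. Strain background and the deletion of *RPB4* cannot be told apart in this ratio. The highest ratio was that of 2R226, with 40 and 20 counts in *rpb4∆* against 10 and 5 in WT (7.64 in mean normalized CPM). 13R2 followed with 15 and 11 counts against 4 and 6 (4.92), then 9F111 with 46 and 29 against 17 and 19 (3.94) and 7F426 with 30 and 28 against 13 and 19 (3.50). All 4 had both *rpb4∆* libraries above both WT libraries in normalized CPM, which their choice by the highest ratio favours.

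No count was found in either *rpb4∆* library for 8 XUTs, which are 10F87, 10R203, 11R109, 14R141, 16R9, 7F163, 8F204 and 9F213. At this depth a count of 0 allows up to 1.10 normalized CPM (3 counts over both libraries). 9F213, with 34 and 28 counts in WT, was therefore at least 10.7-fold lower in *rpb4∆*, and 16R9, with 28 and 23, at least 8.80-fold lower. For 11R109, 14R141 and 7F163 the WT level was itself below this floor, so that no difference was detectable. 4R55 had 1 and 0 counts in *rpb4∆* against 52 and 29 in WT.

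Genes that end, process or degrade such RNAs were read from the same fit. Of 33 genes listed, all counted, 1 was called higher and 2 lower in *rrp6∆* than in WT, 1 higher and 4 lower in *rpb1-84 rrp6∆* than in WT, and 1 lower in *rpb1-84 rrp6∆* than in *rrp6∆*. Over all rows tested these calls made up 32.2% and 6.75%, 28.0% and 6.40%, and, for the last, 6.49%. *NRD1*, which codes for the RNA-binding termination factor, had 1655 and 1535 counts in *rrp6∆* and 1305 and 982 in *rpb1-84 rrp6∆*, against 268 and 222 in WT, with log2 fold changes of 1.46 and 1.31. *MTR4*, the helicase that feeds the nuclear exosome, was called lower in *rrp6∆* (−1.11), and *PAP2*, a poly(A) polymerase of the TRAMP complex, in *rrp6∆* (−1.04) and in *rpb1-84 rrp6∆* (−1.33). In *rpb1-84 rrp6∆* the decapping activator *PAT1* (−1.12), the histone methyltransferase *SET2* (−1.26) and *SKI7*, which couples the cytoplasmic exosome to its helicase (−1.25), were lower than in WT. *SKI7*, with 26 and 32 counts in *rpb1-84 rrp6∆* against 108 and 101 in *rrp6∆*, was also lower there (−1.51). With factors from ORFs alone, none of the 33 was called lower in either comparison with WT, 3 were called higher in *rpb1-84 rrp6∆* than in WT, 2 were called lower in *rpb1-84 rrp6∆* than in *rrp6∆*, and *NRD1* stayed called in both comparisons with WT. *XRN1* itself, one of those listed but looked up after the values were seen, was at −0.93 in *rrp6∆* and −0.94 in *rpb1-84 rrp6∆* against WT. The edgeR adjusted p was 1.75e-11 and 2.41e-11, and the fold change was just short of a call. With factors from ORFs alone the values were −0.44 and −0.60. In *rpb1-84 rrp6∆* against *rrp6∆* it was at −0.01.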

How the data were processed

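RNA-Seq libraries of 3′ tags were analysed for 5 strains, 2 libraries each, grouped by the labels. The authors removed adapters with Fastx Clipper after FastQC, mapped reads with HISAT2 to R64 of S288C, and deposited raw featureCounts counts per row. How strand and overlapping features were handled, and which tool versions were run, is not given in the sources used here. Reads of overlapping rows may therefore be counted in each of them.

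From the counts, TMM factors and edgeR quasi-likelihood fits were computed over 6 libraries (edgeR 4.0.16, R 4.3.3), with filterByExpr, Benjamini-Hochberg adjustment over all 9197 rows tested, and calls beyond a log2 fold change of 1 at an adjusted p below 0.1, the study's thresholds. The biological coefficient of variation was 0.0611. Standard errors were derived from the test, as the absolute log2 fold change divided by the square root of its F statistic. The fit was first tested on simulated counts. Descriptions used all 10 libraries, with 0.5 added to CPM. Tables used pandas 2.3.3, numpy 2.4.6 and scipy 1.17.1 under Python 3.11.15. Intervals of count ratios are 95% exact (Clopper-Pearson) binomial intervals.

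Named XUTs are the 8 with most *rpb1-84* counts, the 4 nearest the threshold on each side, the 8 called highest and lowest per comparison with libraries that do not overlap, the 6 with least change among those with at least 200 counts in *rrp6∆* and WT, the 4 highest and lowest in *rpb4∆* against WT (ties of 0 as listed), those identical to another row, and, of the listed pathway genes, those called. The XUTs, lists and tests were chosen with earlier results of these data known. Alternatives were total counts, DESeq2 size factors or ORF-based factors, no filter, DESeq2 1.42.0 as the test, a replicate block, fits of 4 or 10 libraries, each library left out, and other thresholds.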

Additional observations from a re-analysis of the deposited data

Results flagged for a closer look

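Deleting *RRP6* went with opposite directions in the 2 polymerase backgrounds for 10 named XUTs, with no overlap between libraries in either background. Directions and overlap are those of CPM scaled by the TMM method. Among all 468 XUTs 8 (1.71%) were higher in *rpb1-84 rrp6∆* than in *rpb1-84* and lower in *rrp6∆* than in WT, against 7.20% of all rows, and 71 (15.2%) were lower and higher in these comparisons, against 4.62%. Choosing rows by high *rpb1-84* counts favours the second kind. Of the 10, 15F18 and 10R186 were named for their *rpb1-84* counts, 15F14, 9F2, 7F384, 16F182, 4F446 and 4R27 for being called lower in *rpb1-84 rrp6∆*, and 13R2 and 2R226 for a high ratio of *rpb4∆* to WT, so that the values are a description only. The difference between backgrounds was not tested, the *rpb1-84* counts chose the XUTs, and the *rpb1-84* strain carries an *RPB4* tag that *rpb1-84 rrp6∆* lacks. In 2 of them the level was higher in *rpb1-84 rrp6∆* than in *rpb1-84* and lower in *rrp6∆* than in WT. The mean log2 ratio (0.5 added to CPM) of 15F14 was 3.12 in the *rpb1-84* background and −0.87 in the other, and that of 9F2 was 2.35 and −0.57. In the other 8 it was lower in *rpb1-84 rrp6∆* than in *rpb1-84* and higher in *rrp6∆* than in WT. Of these, 4F446 had −1.74 and 0.96, 10R186 −1.70 and 0.93, 13R2 −1.18 and 1.18, 4R27 −1.11 and 1.08, 15F18 −0.77 and 1.01, 7F384 −0.73 and 0.80, 16F182 −0.56 and 1.40, and 2R226 −0.42 and 2.00. Factors from ORFs alone raised the median over all 468 XUTs from 0.13 to 0.61 in the *rpb1-84* background. In *rrp6∆* against WT they raised the median of all rows by 0.49. Smaller ratios, such as −0.42 for 2R226 and −0.57 for 9F2, may therefore change sign with the scaling, which was not tested.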

How the results depend on the processing

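Counts and medians are given for *rrp6∆* against WT, *rpb1-84 rrp6∆* against WT and *rpb1-84 rrp6∆* against *rrp6∆*, in this order; where a value is left out it moved little, and the cause was not tested unless the setting is its own cause. Scaling from ORFs alone gave medians of 1.17, 0.83 and −0.31, with 1, 9 and 50 called lower, and total counts 1.00, 0.67 and −0.31, with 2, 10 and 46. DESeq2 factors and DESeq2 itself moved only the last median, to −0.20 and −0.19. Without the filter the first median was 0.67, with the 4 compared libraries alone the first 2 were 0.78 and 0.55 with 3 lower in the first, and with all 10 libraries 0.64 and 0.45. Other thresholds change the number of XUTs by construction: at 20 summed counts 292, 250 and 11 were called higher, 49 lower in the last, with medians of 0.77, 0.61 and −0.20; at 80 counts 85, 74 and 4 higher and 1, 10 and 9 lower, with 0.52, 0.45 and −0.035; at 20 counts in each *rpb1-84* library 113 and 97 higher and 3, 13 and 16 lower, with 0.53, 0.44 and −0.094. Chosen after seeing the data, leaving out XUTs that share counts with other rows gave a first median of 0.65, and shares of 0.875%, 1.14%, 0.608%, 0.355% and 0.632% in *rpb1-84 rrp6∆*, *rrp6∆*, *rpb1-84*, *rpb4∆* and WT. In the same order of strains the shares were 1.37%, 1.92%, 0.742%, 0.457% and 0.786% of ORF counts, 1.28%, 1.65%, 0.776%, 0.494% and 0.821% at 20 counts, 0.803%, 1.02%, 0.595%, 0.353% and 0.611% at 80, and 0.907%, 1.17%, 0.646%, 0.390% and 0.676% at 20 in each library. Without identical rows *rpb1-84 rrp6∆* had 1.10%, and without 12R299, also chosen after seeing the data, it had 1.08%, *rpb1-84* 0.615%, *rpb4∆* 0.426% and WT 0.729%. The described medians became 0.45 (total counts) and 0.61 (ORFs) for *rpb1-84 rrp6∆* to *rpb1-84*, and 0.27 for *rpb1-84* to WT under both.

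Leaving out each library in turn gave 177 to 185 higher and 4 to 8 lower (median 0.65 to 0.68), 154 to 160 and 16 to 22 (0.48 to 0.55), and 7 to 11 and 26 to 36 (−0.17 to −0.16). The shares ran from 1.11% to 1.12%, 1.39% to 1.45%, 0.708% to 0.723%, 0.444% to 0.447% and 0.743% to 0.756%. Where it left a strain with 1 library, that library is assumed to vary like the others. With a replicate block 179 and 6, 154 and 22, and 7 and 27 were called; replicate numbers are only names here, since the correlation of same-numbered deviations was 0.037, −0.019 and −0.019.

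Of 952 values of 49 named XUTs, 887 kept direction and call, 27 lost a call and 4 gained one, and 34 changed sign, none of them called. In *rrp6∆* against WT with scaling from ORFs alone and with total counts, 9F4 was at 0.25 and 0.077, 4R263 at 0.36 and 0.19, 16R348 at 0.34 and 0.17, 10R249 at 0.19 and 0.018, 15F269 at 0.46 and 0.29, 14R130 at 0.48 and 0.31 and 9F213 at 0.47 and 0.30. In *rpb1-84 rrp6∆* against *rrp6∆*, 16R348 was at −0.011 and −0.0051. With the 4 libraries, 15F269 was at 0.076, 14R130 at 0.097 and 9F213 at 0.085, and with DESeq2 factors 14R130 was at 0.0060. With all 10 libraries 7F437 was at −0.028, 12R235 at −0.017 and 2R63 at −0.016. Leaving out a library moved 15F269 between −0.27 and 0.19, 14R130 between −0.032 and 0.013, 7F437 between −0.070 and 0.089, 9F213 between −0.081 and 0.045, 12R235 between −0.064 and 0.11 and 2R63 between −0.027 and 0.074. Depth limits *rpb4∆* most, where 235 and 276 XUTs had under 10 counts, against 73 and 99 in WT.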
